A study of Mus musculus with 8 samples.

Results

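The mouse cytochrome P450 genes of families 1 to 4 were followed in the ileum, the last stretch of the small intestine. Members were all non-control probes whose gene name on the array starts with Cyp, then a family digit from 1 to 4, a subfamily letter and a number, and each gene was represented by its probe with the highest mean log2 signal over the 8 arrays. This gave 78 genes among 35715 gene names on the array, of which 51 were bright enough to be tested. The animals were female knock-in mice carrying rtTA at Rosa26 (Rosa26rtTA/+) and a Myc-tagged Tnk1 transgene at Hprt (Hprt Myc-Tnk1tg). rtTA is a transcription activator that needs doxycycline, and TNK1 is a non-receptor tyrosine kinase. One group of 4 received doxycycline by intraperitoneal injection at 50 µg per g in 100 µl, the other group of 4 received 100 µl of 0.9% NaCl, and ileum RNA was taken after 24 hours. Age was not given in the sources used here, nor were the cells in which rtTA is active. The strain label is the same in both groups, but the source name of the saline samples says wild type. A control given the drug but lacking the transgene was not among the samples, so effects of the drug and of the transgene cannot be told apart. The comparison addresses which genes differ in the ileum between the doxycycline group and the saline group. Levels below are log2 processed intensity minus the array's 75th percentile, and they are not comparable between probes.

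P450 enzymes of these families are haem proteins of the endoplasmic reticulum that oxidise foreign chemicals, steroids and fatty acids with electrons passed from P450 reductase and cytochrome b5. Family 1 is best known as the set of aryl hydrocarbon receptor targets. Enzymes of subfamilies 2c and 2j make epoxides of arachidonic acid, family 3 handles many drugs and steroids, and family 4 hydroxylates fatty acids and eicosanoids. In the small intestine these enzymes are known mainly from absorptive enterocytes, where they meet compounds from the gut lumen.

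The labels were first checked on the targeted locus. The Hprt probe averaged 4.34 ± 0.14 (SD, n = 4) after doxycycline and -1.67 ± 0.58 (SD, n = 4) after saline, 64.6-fold higher with doxycycline (limma adjusted p = 5.55e-05 over all kept probes). The Tnk1 probe toward the 5′ end of the gene was 6.92-fold higher (0.64 ± 0.23 against -2.15 ± 0.40, SD, n = 4 each, adjusted p = 4.16e-04). The other Tnk1 probe, toward the 3′ end, differed by -0.45 (adjusted p = 0.143). All 8 arrays were on 1 slide, the doxycycline arrays in row 1 and the saline arrays in row 2, so an effect of the row cannot be told apart from that of the treatment. Between 30485 and 31711 probes were well above background on the doxycycline arrays and between 22067 and 23992 on the saline arrays. The lowest level counted as well above background was -4.89 to -4.51 on the doxycycline arrays and -3.07 to -2.57 on the saline arrays, so a dim gene could be measured further down with doxycycline. The number of arrays limits the precision of every value.

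More P450 genes fell than rose with doxycycline. Of the 51 tested members, 16 fell (31.4%), 1 rose (1.96%) and 34 did not pass the threshold of adjusted p 0.05. Among all 21362 genes tested, 7.90% fell and 5.94% rose. The members' median difference was -0.62 on the log2 scale beside 0.02 for all genes, with 40 negative and 11 positive differences. Of the 16 that fell, 13 fell 2-fold or more and 8 fell 4-fold or more. All 4 doxycycline values lay below all 4 saline values in 13 of the 51 members, against 2785 of all 21362 genes (13.0%), a smaller share. All lay above in 1 of the 51 members, against 1874 of all genes (8.77%). In tissue RNA such as this, fewer cells of a type and less RNA per cell cannot be told apart.

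The counts of members and of all genes that fell depended on which arrays were used. The members' count was 9 without doxycycline 2, 8 without doxycycline 4, 9 without saline 1, 8 without saline 3 and 20 without saline 4. In these settings 1364, 894, 765, 729 and 1656 of all 21362 genes fell, against 1687 with all 8 arrays. The count of members that rose was 2 without doxycycline 4, 4 without saline 2 and 2 without saline 4. All genes that rose then numbered 727, 1438 and 1541, against 1268 with all 8 arrays. Leaving out any 1 array kept the members' median between -0.80 and -0.50. With every gene entered however dim, 36 of 78 members fell (46.2%) and 4 rose (5.13%), beside 33.1% and 5.18% of all 35715 genes, whose median was then -0.33. When all levels were raised to the least sensitive array's detection limit (-2.57), 10 members fell, beside 1740 of all 21362 genes. The calls lost were those of Cyp2c39, Cyp2c55, Cyp2c65, Cyp2c66, Cyp2d10 and Cyp3a57. Every value of Cyp2c65, Cyp2c66 and Cyp3a57 lay above that limit, so their own levels were unchanged. Under the 22 alternatives, 8 members kept their call in each one they entered, namely Cyp1b1, Cyp2c29, Cyp2c54, Cyp2c67, Cyp2c68, Cyp2s1, Cyp3a25 and Cyp4f40.

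**Figure D1:**
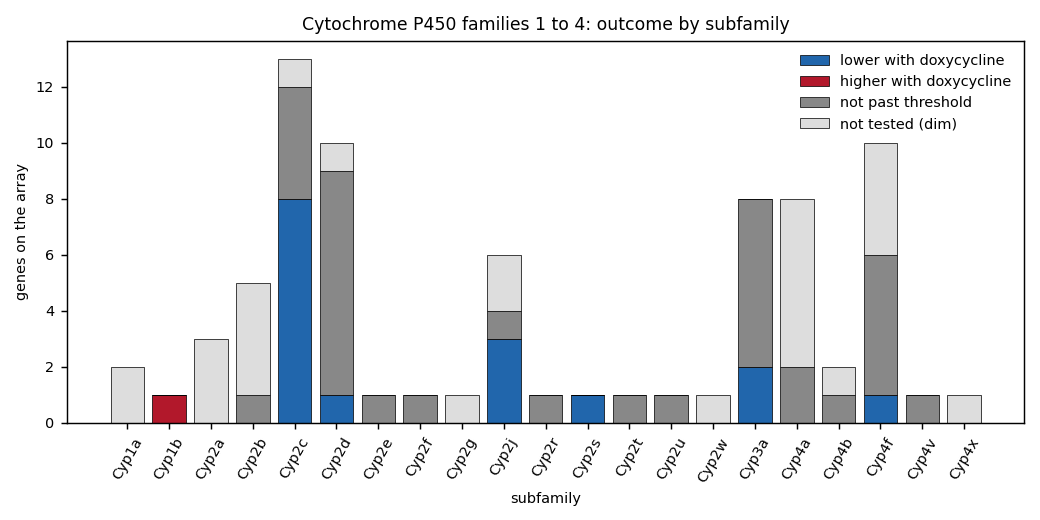
Number of genes of each subfamily (bars, from 0) that fell, rose, did not pass the threshold or were too dim to test, with 4 doxycycline and 4 saline arrays. The Cyp2c bar holds 8 of the 16 genes that fell, and the Cyp1b bar the only gene that rose.

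The probes of 5 members whose call was kept are shown because each lists the accession of a single gene, so that the transcript behind each call can be looked up. All letters are lower case since no position stands out, and the positions come from the mm9 annotation of the array. Exons and untranslated regions are not given here.
Cyp1b1, chr17:80106547-80106606, minus strand: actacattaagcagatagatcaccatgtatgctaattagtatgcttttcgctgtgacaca
Cyp2c29, chr19:39403642-39403701, plus strand: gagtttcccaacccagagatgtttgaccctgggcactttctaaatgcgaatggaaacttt
Cyp2s1, chr7:26587495-26587554, minus strand: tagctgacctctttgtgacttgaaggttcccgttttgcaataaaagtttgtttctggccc
Cyp3a25, chr5:146788879-146788938, minus strand: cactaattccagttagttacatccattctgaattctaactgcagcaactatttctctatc
Cyp4f40, chr17:32812862-32812921, plus strand: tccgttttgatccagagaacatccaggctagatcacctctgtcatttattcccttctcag

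Cyp1b1 was the only member that rose. The enzyme oxidises oestrogens, retinoids and polycyclic hydrocarbons and is made in many tissues outside the liver. Its level was -0.01, 0.53, 0.55 and 1.14 on doxycycline arrays 1 to 4, and -0.92, -0.70, -1.01 and -1.26 on saline arrays 1 to 4. Every doxycycline value lay above every saline value, with doxycycline 4 the highest and saline 4 the lowest. The difference was 1.53 ± 0.246 (SE), or 2.88-fold (95% interval 0.97 to 2.08 on the log2 scale, limma adjusted p = 0.0056). The exact two-sided permutation test gave p = 0.0286, the smallest it can give with 4 against 4. The other family 1 genes, Cyp1a1 and Cyp1a2, which the same receptor is known to control, were not tested. Cyp1a1 was well above background on 1 saline array and no doxycycline array, and Cyp1a2 on no array.

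The core of the aryl hydrocarbon receptor element, GCGTG, was searched on both strands of RefSeq promoters (GRCm38.p6, 250 bases before to 50 bases after the gene start), which 60 of the 78 members had. It was present in 12 of the 60 and in 32.4% of all 32851 promoters. The windows of 60 bases from Cyp1b1 and Cyp1a1 are shown, with the match in capitals, because both are known targets of the receptor and only Cyp1b1 was bright enough to be tested.
Cyp1b1, chr17:79715106-79715165, minus strand, match on the opposite strand 76 bases before the start: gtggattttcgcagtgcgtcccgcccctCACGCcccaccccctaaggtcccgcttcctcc
Cyp1a1, chr9:57697531-57697590, plus strand, match 54 bases before the start: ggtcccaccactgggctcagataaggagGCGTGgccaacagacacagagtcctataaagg
The same letters were also present in the promoters of 3 members that fell, Cyp2c68, Cyp2j9 and Cyp2j13, so the match did not go with 1 direction. The motif letters were chosen with the members' values known, and a match is a description and not a site.

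Subfamily 2c, the arachidonic acid and linoleic acid epoxygenases, held the most falls. Of its 13 genes, 12 were tested and 8 passed the threshold, all of them lower (66.7%, beside 7.90% of all genes tested). All 12 differences were negative over the 8 arrays, with a median of -2.06 and a range of -4.49 to -0.27. Without saline 4, that of Cyp2c37 was 0.51 and that of Cyp2c70 was 0.08, so the signs of these genes, which did not pass, rested on that array. Cyp2c50 was not tested. The falls split into genes whose groups were far apart on every array and genes that varied strongly between arrays of a group.

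Cyp2c29, Cyp2c67 and Cyp2c68 were low on every doxycycline array. Cyp2c29, whose human counterparts metabolise many drugs, read -2.69, -2.39, -2.22 and -2.11 with doxycycline and -0.04, 0.44, 0.42 and -0.24 with saline. The groups lay more than 1 log2 unit apart, and the level was 5.66-fold higher with saline (difference -2.50 ± 0.213, SE, limma adjusted p = 4.64e-04). Cyp2c67 read -0.75, -0.20, -1.0 and -0.32 with doxycycline and 2.04, 2.41, 2.38 and 1.81 with saline. All saline values stood above all doxycycline values, and the difference was -2.73 ± 0.228 (SE, adjusted p = 4.25e-04). A second Cyp2c67 probe differed by -2.47 (adjusted p = 0.00305 in the fit over all kept probes). Cyp2c68 read -1.94, -1.32, -1.20 and -0.77 with doxycycline and 0.75, 1.40, 1.05 and 1.39 with saline. It also had separate groups, and differed by -2.45 ± 0.265 (SE, adjusted p = 9.2e-04).

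The Cyp2c67 and Cyp2c68 values may share signal, because their probes list accessions of several genes: Cyp2c40, Cyp2c67 and Cyp2c68 for one, and Cyp2c40, Cyp2c68 and Cyp2c69 for the other. The second Cyp2c67 probe and the Cyp2c68 probe are shown with their differing bases in capitals, since over 59 aligned bases 55 were identical.
Cyp2c67, second probe: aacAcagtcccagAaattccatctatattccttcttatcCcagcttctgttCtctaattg
Cyp2c68: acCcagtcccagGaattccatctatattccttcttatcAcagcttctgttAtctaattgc
These 2 genes are best read as a single measurement of a group of near-identical transcripts.

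Cyp2c39 and Cyp2c54 fell close to the detection limit: 2 of 4 doxycycline arrays and all 4 saline arrays had each probe well above background. Cyp2c39, known as a retinoic acid hydroxylase, read -4.55, -4.61, -5.39 and -4.57 with doxycycline and -2.57, -1.96, -2.40 and -1.99 with saline. Doxycycline 3 was the lowest, and the groups did not overlap (difference -2.55 ± 0.241, SE, limma adjusted p = 5.57e-04). With every level raised to the common detection limit, the difference shrank to -0.34 and the call was lost (adjusted p = 0.18). Cyp2c54 read -4.60, -6.19, -4.21 and -4.22 with doxycycline and -1.78, -1.14, -1.52 and -1.99 with saline. It too had separate groups and differed by -3.20 ± 0.431 (SE, adjusted p = 0.00248), and by -0.96 at the common limit, where it still passed (adjusted p = 0.0182). A Cyp2c54 probe that overlaps the chosen one (target starts 778 and 760) was well above background on no array. A further Cyp2c54 probe was well above background on saline 4 alone (-0.14). The fall of Cyp2c54 thus rests on 1 probe. The mm9 annotation places the Cyp2c39 probe on the minus strand, right beside that of Cyp2c38 (chr19:39465478-39465537 and chr19:39465415-39465474). The RefSeq promoter of Cyp2c38 is on that strand, but those of Cyp2c39 are on the plus strand. The probe lists accessions of Cyp2c39 alone, so which of these genes it measures is not certain. Cyp2c38, by its own probe, differed by -0.62 (adjusted p = 0.197) and did not pass.

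Cyp2c55, Cyp2c65 and Cyp2c66, known from the gut epithelium, fell with overlapping groups. Cyp2c55, a hydroxylase of arachidonic acid, read -4.15, -2.11, 0.83 and -2.53 with doxycycline and 2.46, 3.15, 3.94 and 0.46 with saline. Doxycycline 3 stood above saline 4, so the groups overlapped by 1 array on each side. The difference of -4.49 ± 1.05 (SE) was the largest of any member, a 22.5-fold higher level with saline, with a wide 95% interval of -6.87 to -2.11 (limma adjusted p = 0.0252, exact permutation p = 0.0571). The call was lost without doxycycline 2, doxycycline 4, saline 1 or saline 3 (adjusted p = 0.0537 to 0.0711).

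Cyp2c65 read 0.23, 0.60, 1.44 and 1.00 with doxycycline and 2.38, 2.79, 2.97 and 1.27 with saline. As in Cyp2c55, doxycycline 3 was the highest doxycycline array and saline 4 the lowest saline array, and the 2 crossed (difference -1.54 ± 0.397, SE, limma adjusted p = 0.0351). Cyp2c66 read 0.30, 0.68, 1.69 and 1.13 with doxycycline and 2.56, 3.05, 3.24 and 1.61 with saline, in the same order of arrays as Cyp2c65 (difference -1.67 ± 0.404, SE, adjusted p = 0.0282). Both calls were lost without doxycycline 1, doxycycline 2, doxycycline 4, saline 1, saline 2 or saline 3 (adjusted p = 0.0677 to 0.0957 for Cyp2c65 and 0.0547 to 0.079 for Cyp2c66).

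The Cyp2c65 and Cyp2c66 probes do not measure separate genes with certainty. The probe of Cyp2c66 lists accessions of both genes and is placed by mm9 just past the Cyp2c65 probe on the plus strand. Both are shown, in lower case, because the match of their values across arrays rests on them.
Cyp2c65, chr19:39167981-39168040: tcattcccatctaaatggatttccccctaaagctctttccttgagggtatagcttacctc
Cyp2c66, chr19:39168057-39168116: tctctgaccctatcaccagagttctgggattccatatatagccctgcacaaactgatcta

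The subfamily's other tested genes, Cyp2c37, Cyp2c38, Cyp2c44 (now named Cyp2c23) and Cyp2c70, had differences of -0.62 to -0.27 and did not pass. All of them were highest on saline 4 among the saline arrays. Cyp2c37 was well above background on 1 saline array, and Cyp2c44 and Cyp2c70 on 2. Saline 4 also stood apart in markers of liver cells. Alb, the albumin gene, read 3.0 there and -5.11 to -4.66 on the other saline arrays, and the summed level of the 10 hepatocyte markers on the array was 70 on saline 4, 16.3 to 19.3 on the other saline arrays and 10 to 13.7 on the doxycycline arrays. Alb, Fgg and Hpx were well above background on no doxycycline array and on 1 saline array, and 2 of the 6 tested markers, Apoh and Serpina1a, fell. Fga, Fgb and Tat had positive differences of 1.22, 3.17 and 0.91 that did not pass, and Fga was well above background on 4 doxycycline arrays and no saline array. Without saline 4, the differences of Cyp2c29, Cyp2c39, Cyp2c54, Cyp2c67 and Cyp2c68 were -2.63, -2.47, -3.32, -2.85 and -2.37, all past the threshold. The part of these markers in the P450 values was not tested.

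**Figure D2:**
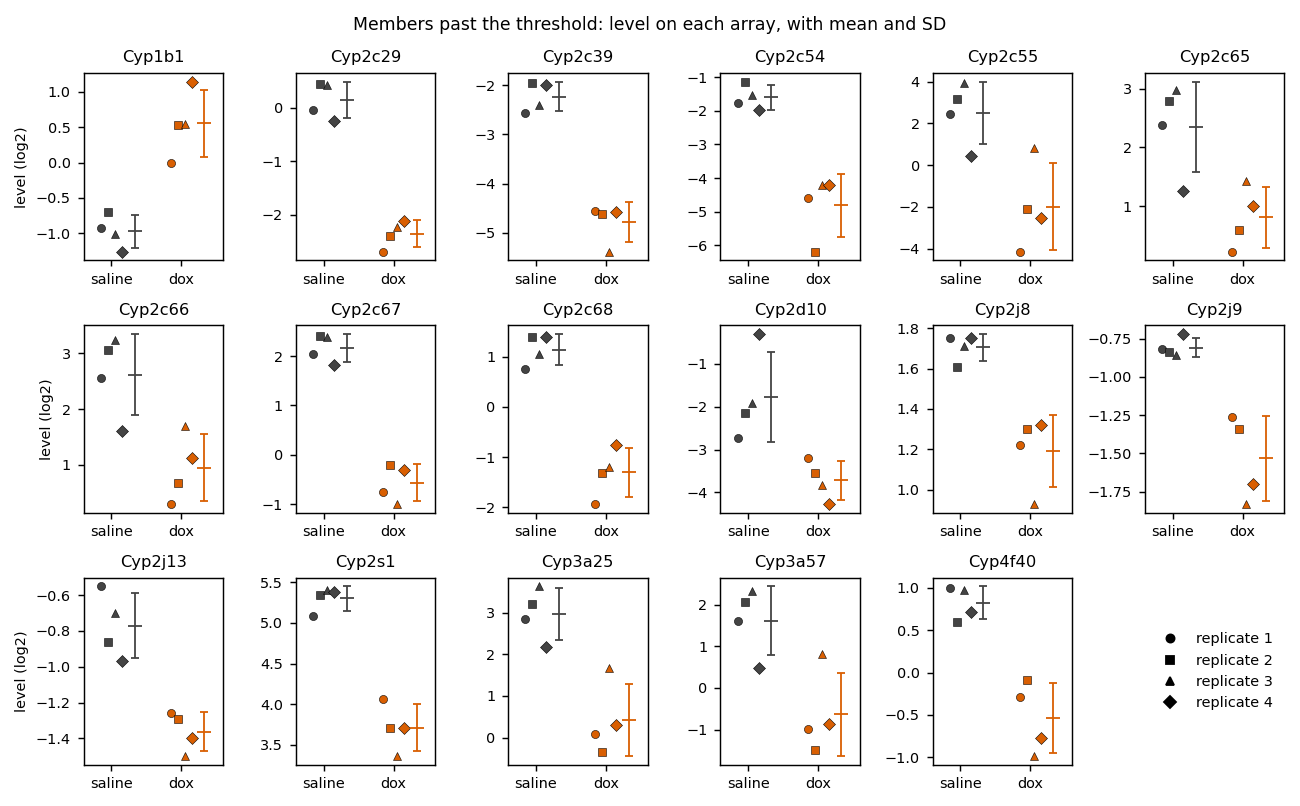
Level (log2 processed intensity minus the array's 75th percentile) of the 17 members past the threshold, 1 panel per gene with its own vertical scale, on 4 saline arrays (dark grey) and 4 doxycycline arrays (orange), with marker shape for replicate number and a bar for mean and SD. Cyp1b1 is higher with doxycycline, the others are lower, and in Cyp2c55, Cyp2c65, Cyp2c66 and Cyp3a57 doxycycline 3 overlaps saline 4.

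A nuclear receptor element known from liver P450 promoters, CAAAGTCCA, is bound by HNF4. On either strand it was present in 156 of the 32851 promoters (0.475%) and in 7 of the 60 members with a promoter. These were Cyp2c65, Cyp2c67 and Cyp2c68, which fell, and Cyp2c70, Cyp3a11, Cyp3a16 and Cyp3a41b, which did not pass. The windows of the genes that fell are shown, with Cyp2c70 as the member of the same subfamily that did not pass, and the match is in capitals. Coordinates are GRCm38.p6 from RefSeq.
Cyp2c65, chr19:39060864-39060923, plus strand: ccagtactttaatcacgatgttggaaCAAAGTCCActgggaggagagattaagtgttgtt
Cyp2c67, chr19:39649134-39649193, minus strand: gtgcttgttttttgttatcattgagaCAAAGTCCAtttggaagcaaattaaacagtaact
Cyp2c68, chr19:39741145-39741204, minus strand: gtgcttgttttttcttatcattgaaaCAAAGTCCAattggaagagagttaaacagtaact
Cyp2c70, chr19:40187317-40187376, minus strand: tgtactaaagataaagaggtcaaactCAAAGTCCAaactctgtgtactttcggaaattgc
The match lay 116, 125, 77 and 64 bases before the start, in that order. The promoters of Cyp2c67 and Cyp2c68 are near copies of each other, and the match was present in genes that fell and in a gene that did not pass.

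Outside subfamily 2c, Cyp2s1 fell with tight groups. Cyp2s1, an extrahepatic enzyme of retinoid and prostaglandin oxidation in epithelia, read 4.07, 3.71, 3.36 and 3.71 with doxycycline and 5.08, 5.34, 5.41 and 5.38 with saline. The groups were about 1 log2 unit apart at their nearest values, and the level was 3.02-fold higher with saline (difference -1.59 ± 0.181, SE, 95% interval -2.0 to -1.18, limma adjusted p = 0.00115). The range over single-array omissions was -1.71 to -1.48.

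Subfamily 2j, epoxygenases of arachidonic acid, moved by small amounts. Of 6 genes, 4 were tested and 3 fell (75%, beside 7.90% of all genes tested). Cyp2j9 read -1.26, -1.34, -1.83 and -1.70 with doxycycline and -0.82, -0.84, -0.86 and -0.72 with saline (difference -0.72 ± 0.168, SE, limma adjusted p = 0.0243). Cyp2j8 read 1.22, 1.30, 0.93 and 1.32 with doxycycline and 1.75, 1.61, 1.71 and 1.75 with saline (difference -0.51 ± 0.145, SE, adjusted p = 0.0475). Cyp2j13 read -1.26, -1.29, -1.50 and -1.40 with doxycycline and -0.55, -0.86, -0.70 and -0.97 with saline (difference -0.59 ± 0.150, SE, adjusted p = 0.0329). The groups did not overlap in any of these genes, and the saline arrays of Cyp2j8 and Cyp2j9 lay within a spread of 0.07 (SD).

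These calls did not hold against the loss of single arrays. That of Cyp2j8 was lost whichever array was left out (limma adjusted p = 0.0599 to 0.126), that of Cyp2j9 without doxycycline 3, doxycycline 4, saline 1 or saline 3 (0.0659 to 0.0693), and that of Cyp2j13 without doxycycline 2, doxycycline 3, doxycycline 4, saline 1 or saline 3 (0.0565 to 0.103). The Cyp2j13 probe lists accessions of Cyp2j12 as well. A second, dimmer Cyp2j13 probe differed by 0.77 (adjusted p = 0.111), and the mean of both gave 0.09. That second probe was well above background on all doxycycline arrays and no saline array. Its doxycycline mean of -3.83 lay under the saline detection limit, so its value gives no direction. Cyp2j6, a fatty acid epoxygenase known from the intestine, read 0.37 to 1.2 with doxycycline and 0.85 to 1.25 with saline, and its difference of -0.35 did not pass (adjusted p = 0.267).

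Subfamily 2d, whose human member metabolises many drugs, had 9 tested genes, of which 1 fell. This share of 11.1% is near the 7.90% of all genes tested that fell. Cyp2d10 read -3.19, -3.55, -3.83 and -4.27 with doxycycline and -2.73, -2.15, -1.91 and -0.30 with saline. Saline 4, the array with the highest sum of hepatocyte markers, was far above the other saline arrays. The other 3 also lay above all doxycycline values. The difference was -1.94 ± 0.480 (SE, limma adjusted p = 0.0303), and -1.45 without saline 4 (adjusted p = 0.0208). The call was lost without doxycycline 2, doxycycline 3, doxycycline 4 or saline 3 (adjusted p = 0.0561 to 0.0826) and at the common detection limit (difference -0.84, adjusted p = 0.308).

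Cyp2d26 read 2.11, 2.19, 2.40 and 2.08 with doxycycline and 3.40, 4.10, 4.72 and 2.18 with saline. Saline 4 alone fell among the doxycycline values, and the difference of -1.41 ± 0.467 (SE) did not pass (limma adjusted p = 0.0771). Without saline 4 it was -1.88 (adjusted p = 0.00815). The differences of the other tested 2d genes ran from -0.89 to 1.17, and none passed. Cyp2d37-ps, a pseudogene by its name, was well above background on all doxycycline arrays and no saline array, so it was tested through the doxycycline arrays alone. It averaged -2.14 ± 1.19 with doxycycline against -3.30 ± 0.60 with saline (SD, n = 4 each). The groups overlapped and the difference did not pass (limma adjusted p = 0.191). The bound on the means, at least 1.61-fold higher with doxycycline, only describes these arrays and gives no direction. Cyp2d9 had the same detection pattern, and its signal with doxycycline lay under the saline detection limit, so no fold is given.

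Cyp2e1 oxidises ethanol and other small molecules and is also made in fat. It read 2.91, 3.90, 4.55 and -2.54 with doxycycline and 2.67, 2.07, 3.78 and 3.20 with saline. Doxycycline 4 stood more than 4 log2 units below every other array, and the remaining doxycycline values lay within or above the saline range. The difference was -0.72 ± 1.36 (SE, limma adjusted p = 0.756), and 0.86 without doxycycline 4 (adjusted p = 0.312), so no direction can be given. The second Cyp2e1 probe gave -0.60.

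Most fat cell markers were also low on doxycycline 4. The 6 adipocyte markers summed to 11.9 there, to 68.1 to 156 on the other doxycycline arrays and to 77.8 to 269 on the saline arrays. Adipoq, the adiponectin gene, read -4.89 on doxycycline 4, 0.98 to 3.23 on the other doxycycline arrays and 2.05 to 4.93 with saline. Cfd, Retn, Plin1 and Lep were lowest there too. Cidec read 3.54 on doxycycline 4, within the saline range of 3.41 to 5.33, and was well above background on all 8 arrays. Cyp2f2, a lung and liver enzyme of aromatic compounds, was lowest on doxycycline 4 as well (-7.06, with the others at -3.77 to -2.60) and highest on saline 4 (-1.05, with the others at -3.56 to -2.60). Its difference of -1.70 did not pass (adjusted p = 0.239). The part of these markers in the P450 values was not tested.

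**Figure D3:**
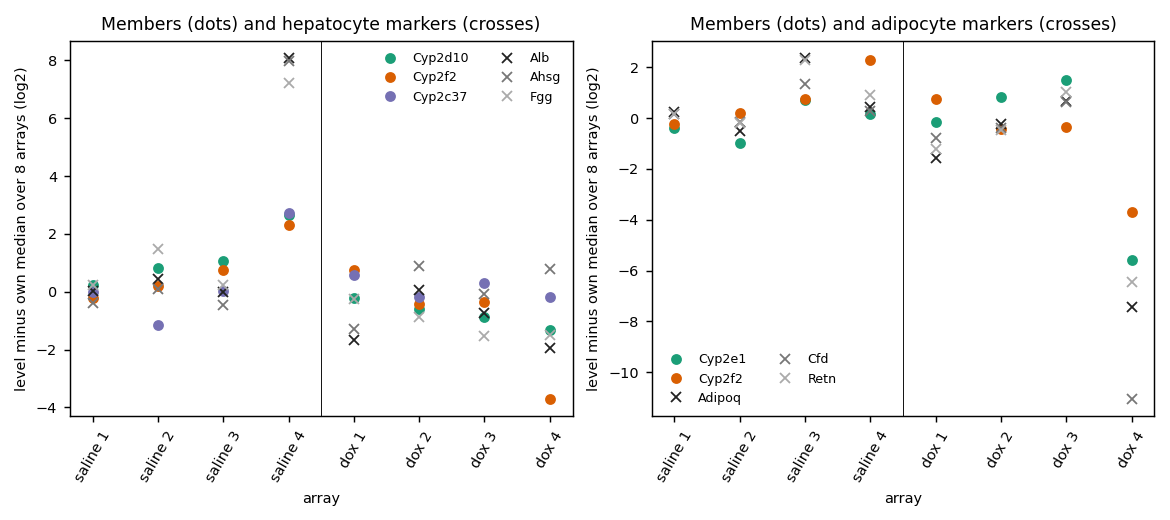
Level minus each gene's own median over the 8 arrays (log2), by array, for P450 members (dots) and marker genes (crosses) of hepatocytes (left) and adipocytes (right). Alb, Ahsg, Fgg, Cyp2d10, Cyp2f2 and Cyp2c37 stand highest on saline 4, and Adipoq, Cfd, Retn, Cyp2e1 and Cyp2f2 lowest on doxycycline 4. The genes were picked after their values were seen, and Fga, Fgb, Tat and Cidec, which went otherwise, are not drawn. Doxycycline 4 was the lowest doxycycline array in 28 of the 51 tested members.

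None of the remaining family 2 genes passed the threshold. The probe chosen for Cyp2u1, a fatty acid hydroxylase, lists no RefSeq gene, and the only Cyp2u1 probe that does was well above background on no array. The chosen probe read 6.12, 6.01, 6.12 and 5.65 with doxycycline and 5.94, 5.94, 6.02 and 6.98 with saline. Only saline 4 stood out, and the difference was -0.24 (95% interval -0.83 to 0.34, limma adjusted p = 0.558), or 0.01 without saline 4. Cyp2r1, a vitamin D hydroxylase, differed by 0.01 (95% interval -0.55 to 0.57, adjusted p = 0.986), with values of 0.41 to 1.41 against 0.48 to 0.93. Cyp2b10, a target of the constitutive androstane receptor, ran from -3.79 to 0.15 with doxycycline and from -2.56 to 2.86 with saline. This spread within each group was larger than the difference of -1.03 ± 1.26 (SE, adjusted p = 0.617). Cyp2t4 differed by -0.58 (adjusted p = 0.149).

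**Figure D4:**
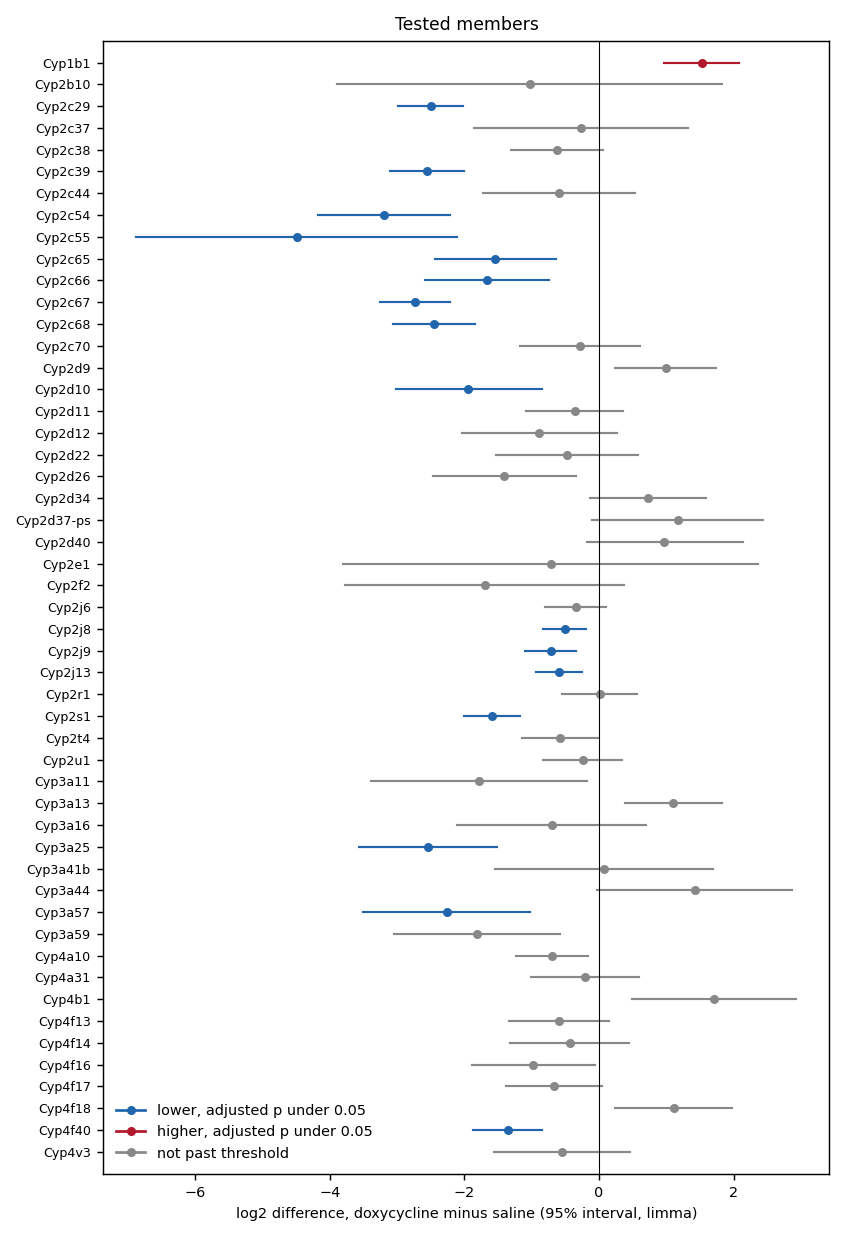
Difference between doxycycline and saline (log2, horizontal axis) with its 95% interval for the 51 tested members, coloured by the limma call. Over all 8 arrays the tested Cyp2c genes lie left of 0, Cyp1b1 lies at 1.53, and the Cyp3a and Cyp2d genes lie on both sides of 0.

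In family 3, known for the broad substrate range of its enzymes, all 8 genes were tested. Of these 2 passed the threshold, both lower (25%, beside 7.90% of all genes tested). The family's median difference was -1.24 and the range -2.54 to 1.42, the genes thus lying on both sides of 0. Cyp3a25 read 0.08, -0.36, 1.66 and 0.30 with doxycycline and 2.85, 3.20, 3.64 and 2.17 with saline. Doxycycline 3 was the highest of its group and saline 4 the lowest of its group, but the groups did not overlap (difference -2.54 ± 0.453, SE, limma adjusted p = 0.00867, a 5.83-fold higher level with saline). Cyp3a57 read -0.99, -1.5, 0.81 and -0.87 with doxycycline and 1.6, 2.07, 2.34 and 0.47 with saline. The same arrays crossed in this gene, and the difference was -2.26 ± 0.545 (SE, adjusted p = 0.0277), lost without doxycycline 1, doxycycline 2, doxycycline 4, saline 1, saline 2 or saline 3 (adjusted p = 0.0535 to 0.0784).

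Cyp3a59 also had doxycycline 3 highest and saline 4 lowest in their groups, and missed the threshold. It read -0.92, -1.15, 0.51 and -1.26 with doxycycline and 1.09, 1.58, 2.03 and -0.29 with saline (difference -1.81 ± 0.545, SE, limma adjusted p = 0.0577). Without doxycycline 3 or saline 4 it passed (adjusted p = 0.038 and 0.0186). Cyp3a11, the main drug-metabolising P450 of mouse liver and gut and a target of the pregnane X receptor, read 1.43, 1.31, 2.11 and -0.91 with doxycycline and 2.19, 3.06, 4.16 and 1.67 with saline. Doxycycline 3 lay above saline 4, and the difference of -1.78 ± 0.707 (SE) did not pass (adjusted p = 0.123). A second Cyp3a11 probe differed by -0.51.

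Cyp3a13, known as an intestinal member of the family, had a positive difference. It read 6.05, 5.56, 5.81 and 5.06 with doxycycline and 4.66, 5.17, 4.49 and 3.75 with saline. Only saline 2 reached into the doxycycline range. The difference of 1.10 ± 0.319 (SE, 95% interval 0.38 to 1.82) missed the threshold (limma adjusted p = 0.0515) and passed without saline 2 (1.32, adjusted p = 0.0274). A second Cyp3a13 probe gave 0.51 (adjusted p = 0.364). Cyp3a16, Cyp3a41b and Cyp3a44 differed by -0.70, 0.07 and 1.42, with adjusted p of 0.480, 0.958 and 0.166. The Cyp3a41b probe lists accessions of Cyp3a41a and Cyp3a41b, and 46 of 53 aligned bases of a Cyp3a41b and a Cyp3a44 probe were identical, so signal of these genes may be shared.

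The Cyp3a promoters were sorted into classes by exact matches to the letters of 2 nuclear receptor elements. CAAAGGTCA, which contains the half-site AGGTCA, was present in 157 of the 32851 promoters (0.478%) and among members only in Cyp3a25, Cyp3a57 and Cyp3a59. Their differences were -2.54, -2.26 and -1.81, of which that of Cyp3a59 did not pass. CAAAGTCCA was present in Cyp3a11, Cyp3a16 and Cyp3a41b, whose differences were -1.78, -0.70 and 0.07. Neither was found in Cyp3a13 or Cyp3a44, with 1.10 and 1.42. The Cyp3a44 promoter is a near copy of that of Cyp3a16 up to the letters CAAAGT, so its lack of a match rests on the letters after them. Cyp3a59 and Cyp3a11, from different classes, had nearly the same difference. A window of each gene holding an element is shown except Cyp3a41b, with the match in capitals (GRCm38.p6).
Cyp3a25, chr5:146009764-146009823, minus strand: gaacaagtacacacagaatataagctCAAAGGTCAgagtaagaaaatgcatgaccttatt
Cyp3a57, chr5:145345066-145345125, plus strand: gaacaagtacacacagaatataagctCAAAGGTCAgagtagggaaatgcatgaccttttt
Cyp3a59, chr5:146079052-146079111, plus strand: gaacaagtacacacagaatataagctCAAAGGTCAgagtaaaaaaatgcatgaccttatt
Cyp3a11, chr5:145879930-145879989, minus strand: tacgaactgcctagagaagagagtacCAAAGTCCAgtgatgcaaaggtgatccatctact
Cyp3a16, chr5:145469789-145469848, minus strand: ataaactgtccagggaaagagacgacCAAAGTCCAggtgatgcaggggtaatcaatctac
The CAAAGGTCA match lay 177 to 180 bases before the start and the CAAAGTCCA match of Cyp3a11 and Cyp3a16 109 and 99 bases before it. The promoters within a class are near copies, so these are not independent cases, and the match is a description of letters with no test. Among all 60 members with a promoter, the half-site AGGTCA was present in 18, and in 16.3% of all promoters. The TATA box letters TATAAA were present in 25 and in 13.6% of all promoters. Another element searched, AGATAA, was present in 14 and in 11.2% of all promoters.

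Family 4 holds fatty acid hydroxylases. Of 22 genes, 10 were tested and 1 fell, with a median difference of -0.57. This 1 fall (10%) is near the 7.90% of all genes tested that fell. Cyp4f40 read -0.29, -0.09, -0.99 and -0.78 with doxycycline and 1.00, 0.60, 0.98 and 0.72 with saline. The groups did not overlap, and the difference was -1.36 ± 0.225 (SE, limma adjusted p = 0.00627, a 2.57-fold higher level with saline).

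Its relatives in subfamily 4f, hydroxylases of leukotriene B4 and long-chain fatty acids, did not pass. Cyp4f14 read 7.21, 6.41, 5.63 and 5.52 with doxycycline and 6.91, 6.86, 6.78 and 5.94 with saline. The doxycycline values lay on both sides of the saline values, with a difference of -0.43 (95% interval -1.32 to 0.45, limma adjusted p = 0.491). Cyp4f13, Cyp4f16 and Cyp4f17 differed by -0.60, -0.98 and -0.67. Cyp4f18, known from leukocytes, differed by 1.11 (adjusted p = 0.0872), and its second probe by 1.12.

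Cyp4b1, a hydroxylase of fatty acids and protoxins, had the most positive difference of any member but did not pass. It read 3.85, 4.0, 3.16 and 2.34 with doxycycline and 1.6, 2.65, 2.04 and 0.23 with saline. Doxycycline 4 lay under saline 2, and the remaining values were separate (difference 1.71 ± 0.538, SE, limma adjusted p = 0.0661). Without saline 2 it was 2.05 (adjusted p = 0.0382). Cyp4a10, a PPAR alpha target, read -1.88 to -1.18 with doxycycline and -1.07 to -0.26 with saline. It was the only member whose groups did not overlap and which still missed the threshold (difference -0.70 ± 0.239, SE, adjusted p = 0.0844). Cyp4v3, an omega-hydroxylase, differed by -0.55 (95% interval -1.56 to 0.46, adjusted p = 0.441).

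The 27 members that were not tested were dim. Of these 17 were well above background on no array, 5 only on doxycycline arrays and 5 only on saline arrays. They include 6 of the 8 Cyp4a genes, 4 of the 5 Cyp2b genes, all 3 Cyp2a genes and both Cyp1a genes. Of the 51 tested members, 48 were well above background on all doxycycline arrays and 37 on all saline arrays, where the detection limit was higher on the saline arrays.

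Members varied within groups. The median SD within a group was 0.643 over the tested members and 0.322 over all genes. It was 0.383 over the members that fell and 0.705 over the 34 not past the threshold. The test favours genes with a small SD, so the contrast between these sets follows in part from their selection. Doxycycline 4 was the lowest doxycycline array in 28 of the 51 tested members, and saline 4 the lowest saline array in 29. Among the 16 members that fell, doxycycline 4 was the lowest of its group in 1 and saline 4 in 9. Relative to the saline mean, the members' median was -0.26, -0.60, -0.59 and -1.12 on doxycycline arrays 1 to 4 and -0.17, 0.25, 0.16 and -0.38 on saline arrays 1 to 4. Doxycycline 1 thus lay above saline 4 in this median. With saline 4 and doxycycline 4 both left out, 15 members fell, 4 rose and the median was -0.64. Of all 21362 genes, 959 fell and 930 rose in that setting.

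**Figure D5:**
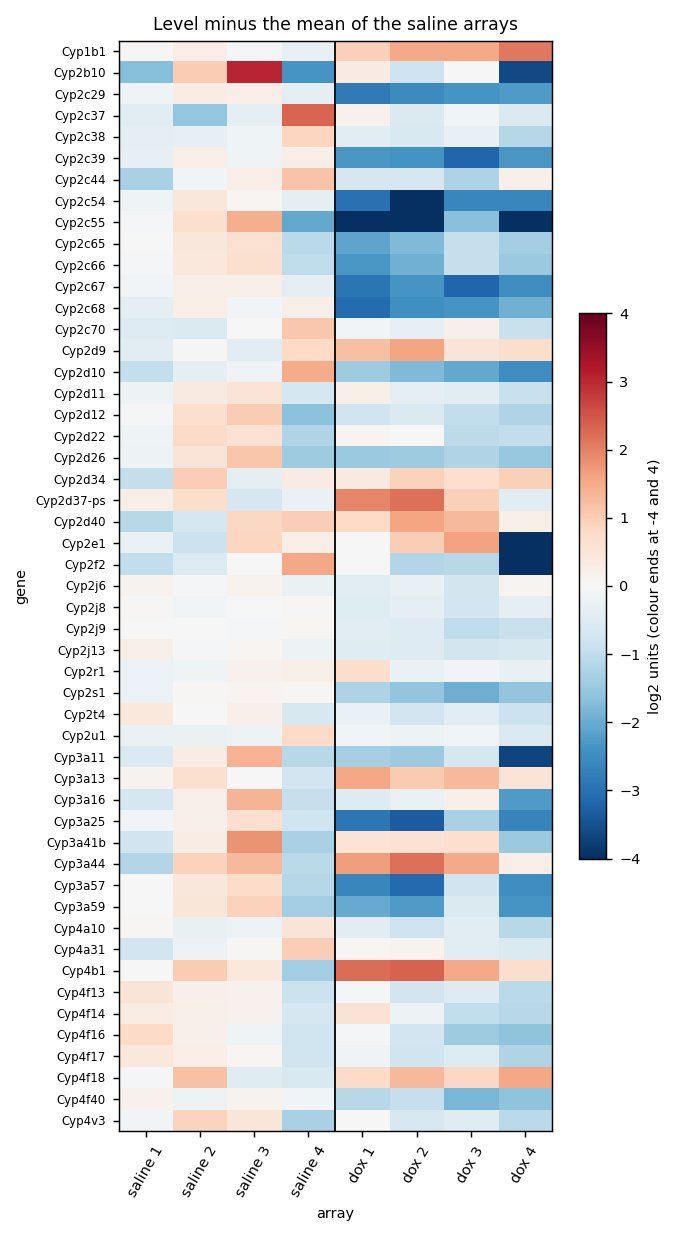
Level of each tested member on each array minus that gene's mean over the 4 saline arrays (log2, blue lower, red higher, colour ending at -4 and 4), with saline arrays left of the line and doxycycline arrays right of it. Cyp2c29, Cyp2c54, Cyp2c67, Cyp2c68 and Cyp2s1 are blue on all doxycycline arrays, and in Cyp2e1, Cyp2f2, Cyp2b10 and Cyp3a11 doxycycline 4 is the lowest array.

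Markers of several gut cell types changed in the same comparison, in which 7.90% of all genes tested fell and 5.94% rose. Of 15 enterocyte markers, 1 fell, Cdx2 (difference -1.14, limma adjusted p = 0.00543), and their summed level was 1630 to 2540 with doxycycline and 2050 to 2320 with saline. Goblet cell markers fell in 8 of 9 cases (summed level 648 to 1020 against 1760 to 2220), enteroendocrine markers in 5 of 7 tested (39.7 to 78.5 against 125 to 178) and crypt stem cell markers in 4 of 5 (21.2 to 27.5 against 33 to 50.9). Tuft cell markers fell in 2 of 3 tested, and among 6 Paneth cell markers none passed, at an unadjusted p under 0.05 either. Of 8 tested endothelial markers 2 rose, Tie1 by 1.78 and Esam by 0.66, and of 7 fibroblast markers 1 rose, Pdgfra by 1.24. Of 9 leukocyte markers 1 fell, Adgre1, with a difference of -0.95, and none rose. The median of the leukocyte list was 0.80, and its summed level was 70.7 to 110 with doxycycline and 39.5 to 98 with saline. Mep1a and Apoa4 differed by -0.88 and 3.81 and did not pass (adjusted p = 0.0621 and 0.0977). The enterocyte marker Vil1 read 7.10 to 7.81 with doxycycline and 7.48 to 7.99 with saline, and was well above background on all 8 arrays. The part of cell makeup in the P450 values was not tested.

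The genes that serve P450 enzymes were read from a fixed list of electron donors and haem synthesis genes. Of 18 tested, 4 fell and 1 rose, with a median of -0.30. The shares of all genes tested, for this list and those below, were 7.90% lower and 5.94% higher. Cyb5a, cytochrome b5, read 5.97, 5.84, 5.89 and 5.95 with doxycycline and 6.83, 6.68, 6.99 and 7.02 with saline. The groups were tight and separate (difference -0.96 ± 0.140, SE, limma adjusted p = 0.00348). Fech, which puts iron into haem, fell by 0.66 (adjusted p = 0.0199), a call lost without doxycycline 3, doxycycline 4 or saline 3 (0.0533 to 0.0695). Hmox1, the enzyme that breaks haem down, rose by 1.43 (adjusted p = 0.0136), from -0.20 ± 0.18 to 1.23 ± 0.60 (SD, n = 4 each). Cyb5b and Pgrmc1 also fell, by 0.96 and 0.59, and are named after their values were seen. Por, the P450 reductase that most microsomal P450s need, read 4.24 to 5.52 against 3.86 to 4.58, a difference of 0.61 that did not pass (adjusted p = 0.174).

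Of 26 tested receptors and factors that control P450 genes, 6 passed the threshold, all lower, with a median of -0.46. Vdr, the vitamin D receptor, which drives Cyp3a genes in the gut, read 3.19, 2.71, 2.92 and 2.80 with doxycycline and 4.70, 4.47, 4.57 and 4.17 with saline (difference -1.58 ± 0.175, SE, limma adjusted p = 0.00103). Nr3c1, the glucocorticoid receptor, fell by 1.03 (adjusted p = 0.00165), with every doxycycline value between 3.87 and 3.98 and every saline value between 4.83 and 5.0. Foxa2, a pioneer factor of gut and liver, fell by 1.66 (adjusted p = 0.00219). Foxa3, Nr1h3 and Ahrr were the others. Hnf4a and Nr1i2, the pregnane X receptor, named after their values were seen, differed by -0.39 and -0.66 and did not pass (adjusted p = 0.193 and 0.098). Nfe2l2, which like Ahrr is also in the list of receptor targets, read 3.22, 3.46, 1.43 and 1.58 with doxycycline and 3.68 to 4.05 with saline, and its difference of -1.45 missed the threshold (adjusted p = 0.0666) and passed without doxycycline 1 or doxycycline 2 (0.0333 to 0.0454).

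Aryl hydrocarbon receptor genes did not move in 1 direction beside Cyp1b1. Ahr itself differed by 0.25 ± 0.193 (SE, limma adjusted p = 0.412). Of 7 tested targets outside the family, Ahrr, the receptor's repressor, fell by 1.22 (adjusted p = 0.00259) and Tiparp rose by 1.01 (adjusted p = 0.0369). Ahrr read -3.17 to -2.63 with doxycycline and -1.79 to -1.45 with saline. The Tiparp call was lost without any 1 of the 7 arrays other than doxycycline 1 (adjusted p = 0.0597 to 0.0981).

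P450 genes of other families were tested in 11 of 21 cases, with 1 fall and 1 rise, near the shares of all genes (7.90% and 5.94%). Cyp39a1, an oxysterol hydroxylase, fell by 1.40 ± 0.224 (SE, limma adjusted p = 0.00539), from 1.78 ± 0.27 to 0.38 ± 0.37 (SD, n = 4 each). Cyp26b1, which degrades retinoic acid, rose by 1.01 (adjusted p = 0.0329), a call lost without doxycycline 2, doxycycline 3, doxycycline 4, saline 1, saline 2 or saline 3 (0.0549 to 0.0933). Cyp7b1, another oxysterol enzyme, differed by 0.74 (adjusted p = 0.0685).

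Of 16 tested genes of eicosanoid and epoxide metabolism, the pathway that Cyp2c, Cyp2j and Cyp4f products enter, 1 passed the threshold. Ptgs1, the constitutive cyclooxygenase, rose by 0.73 ± 0.160 (SE, limma adjusted p = 0.0198), a call lost without saline 1 or saline 3 (adjusted p = 0.0586 and 0.0677). Lta4h and Alox5, enzymes of leukotriene synthesis, differed by -0.63 and -0.64 and did not pass (adjusted p = 0.0541 and 0.114), although Lta4h passed without doxycycline 1 (0.0465). The 1 rise is near the 5.94% of all genes that rose. At an unadjusted p under 0.05 there were 3 of these 16 genes, beside 6701 of all 21362 genes, a larger share.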

How the data were processed

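Ileum RNA (200 ng per sample, per the labels) was measured on 8 single-colour Agilent arrays. Each deposited scanner file gives a linear intensity per spot; the submitters' processing notes name Agilent Feature Extraction 10.7.3.1. The deposited value table holds log2 values, each column being the log2 processed intensity minus a constant (within 5e-05), with medians of -3.77, -3.92, -3.83 and -3.81 for doxycycline 1 to 4 and -3.97, -3.70, -3.79 and -3.86 for saline 1 to 4, so scale, centring and direction are known. It served as an alternative.

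Outlier spots were left out, spots of a probe averaged, and log2 values reduced by each array's 75th percentile over non-control probes. A gene was tested if 4 or more of the 8 arrays showed its probe well above background. Tests were two-sided and used limma 3.58.1 (lmFit, eBayes; R 4.3.3), and Benjamini-Hochberg adjusted p-values over the 21362 genes were held to 0.05. The code was tested on simulated data. For an "at least" fold, each dim array entered at its own signal or at its lowest signal well above background, whichever was higher. Since the labels do not say whether each array is another animal, the p-values reflect only how these samples vary.

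Named genes are Tnk1, Hprt, every member past the threshold, a fixed list of 20 members, the brightest and smallest-p members that missed it, and up to 3 genes per partner list with Por and Ahr. The remaining members named with values, and the marker genes, fall outside this rule and were chosen after their values were seen. Members and lists were chosen with earlier results of these data known. Alternatives were background correction, scaling, filters, a floor, the probe rule, array omissions, array weights and the replicate number as a block. Same-numbered samples had deviations that correlated by 0.00601, -0.0439, 0.113 and 0.0125. These values give no sign that the numbers pair the samples, but cannot show that they were handled apart.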

Additional observations from a re-analysis of the deposited data

Results flagged for a closer look

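Of 96 groups of 4 arrays examined (each named gene in each treatment), 3 held an array far from the rest, and chance flags about 1 in 20 groups. Cyp2c39 read -5.39 on doxycycline 3 and -4.61 to -4.55 on the other doxycycline arrays, all near the detection limit. Cyp2u1 read 6.98 on saline 4 and 5.94 to 6.02 on the other saline arrays. Cyp4f14 read 5.94 on saline 4 and 6.78 to 6.91 on the other saline arrays.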

How the results depend on the processing

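Of 372 comparisons of the 17 called members with alternatives, 308 kept the call, 63 lost it with the same direction and 1 turned, Cyp2j13 to 0.09 with the mean of a gene's probes. The second Cyp2j13 probe in that mean was well above background on no saline array. The members that fell numbered 16 in the main setting, 36 with no filter on dim probes (median -1.0), 10 at the common floor, 23 with array weights, 14 with the replicate block and 8 to 20 with 1 array left out. The members that rose numbered 1, against 4 with normexp background, 4 with no filter, 2 with a filter on all arrays of a group, 3 with a filter on all 8 arrays, 5 with array weights, 3 with the replicate block, 4 without both saline 2 and saline 4, 4 without both saline 4 and doxycycline 4, and 1 to 4 with 1 array left out. Over all genes, 1687 fell and 1268 rose, against 11809 falls with no filter, 3211 and 2774 with array weights, 905 and 787 with the replicate block, 1027 falls without both saline 2 and saline 4, 959 falls without both saline 4 and doxycycline 4, and 729 to 1870 falls and 648 to 1541 rises with 1 array left out. The members' median ran from -0.80 to -0.50 over single-array omissions. With only members whose probe lists 1 gene, 12 fell and 1 rose of 45, with a median of -0.62. That choice and the omission of saline 4 with doxycycline 4 were made after seeing the data. Among the named members that did not pass, the sign turned for Cyp2e1 (0.86 without doxycycline 4, 0.95 without both saline 4 and doxycycline 4), Cyp2u1 (0.01 without saline 4, 0.12 without both saline 4 and doxycycline 4) and Cyp2r1 (-0.03 with normexp, -0.17 with the mean of probes, and -0.22, -0.07 and -0.05 without doxycycline 1, saline 1 and saline 2). Over the array omissions alone, the sign turned in 7 of the 51 tested members, none of them called. The others were Cyp2c37 (0.51), Cyp2c70 (0.08) and Cyp4a31 (0.12) without saline 4, and Cyp3a41b (-0.36 without saline 4), and without saline 4 there were 37 negative and 14 positive differences. Over all single-array omissions Cyp2e1 ran from -1.5 to 0.86, Cyp2r1 from -0.22 to 0.11 and Cyp2u1 from -0.34 to 0.01. The causes were not tested. With the replicate block, Cyp2c65, Cyp2d10, Cyp2j8, Cyp2j9 and Cyp2j13 lost their call, and Cyp3a11, Cyp3a13, Cyp3a59, Cyp4b1 and Cyp4f16 gained one. Whether the replicate numbers pair the samples is not known. Signal near background limits Cyp2c39, Cyp2c54, Cyp2d10 and the 27 untested members.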
